A study of Homo sapiens with 6 samples.

Results

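The 41 genes described here encode the machinery that builds the precursor of N-linked glycans, transfers it to proteins in the endoplasmic reticulum (ER) and passes the new glycoprotein through the calnexin cycle. They were taken by name from this pathway, and all 41 were found among the 60668 genes of the table by Ensembl identifier. They were measured in MiaPaCa-2, an established human pancreatic ductal adenocarcinoma (PDAC) cell line, by strand-specific RNA-seq of bulk cultures. Low-glucose cells had 2.5 mM glucose for 48 h (3 libraries) and control cells 25 mM (3 libraries), with no genetic change in either condition. Per the methods, control medium was DMEM with glutamine, serum, penicillin/streptomycin and plasmocin, and low-glucose medium was made from glucose-free DMEM with serum and penicillin/streptomycin. Glutamine is named for the low-glucose medium of other experiments of the study, and how the media of these 6 cultures differed beyond glucose was not examined here. In bulk RNA, a change in the share of cells that express a gene and a change in the RNA per cell cannot be told apart.

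N-glycosylation starts with an activated mannose, GDP-mannose, and with dolichol, a long lipid of the ER membrane. Enzymes on the cytosolic face of the membrane begin an oligosaccharide on dolichol, the structure is flipped, and lumenal enzymes complete it with mannoses and glucoses. The oligosaccharyltransferase (OST) then moves it onto asparagines of proteins entering the ER. Glucosidases trim its glucoses, and the lectin chaperones calnexin and calreticulin hold the folding glycoprotein until trimming is complete, with a glucosyltransferase that marks misfolded molecules for another round.

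Libraries held 9741183 to 10190154 reads on genes in control and 10595408 to 13733477 in low glucose. Values are normalized counts, that is, reads divided by 1 size factor per library, and they were compared as log2(value + 1) with limma's two-sided moderated test. Benjamini-Hochberg adjusted p-values covered the 21101 genes whose mean was 1 or more, and 0.05 was the threshold. Values per library are given in order of depth, so that in low glucose replicate 2 comes first, then replicate 1, and last the deepest library, which carries no number. KRT8, KRT18 and VIM, which this line is known to express, had at least 13896 reads in every library. PTPRC, CD3E, DCN, PRSS1, CPA1 and CDKN2A, a locus known to be lost in this line, had 0 reads, and the other markers of leukocytes, endothelium and fibroblasts had 0 to 45. Control libraries differed among themselves by transcript length. In the one with 10126218 reads the median log2 deviation from the control mean was -0.09 over 586 genes with transcripts under 1000 bases and 0.10 over 3236 genes with transcripts of 5000 bases or more. In the one with 10190154 reads these medians were 0.11 and -0.10.

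Of the 41 mRNAs, 40 could be tested, and 14 passed the threshold of the limma fit, 7 higher after low glucose and 7 lower. Among all genes tested, 30.9% passed, 14.7% higher and 16.2% lower, so the pathway as a whole changed about as often as the transcriptome. Its median log2 fold change was 0.02, beside 0.05 for all genes. Enzymes that make GDP-mannose included 3 of the 7 rises, the dolichol group included 3 of the 7 falls and no rise, and calreticulin (CALR) had the largest rise on the log2 scale. Of the 26 tested members that did not pass, the log2 fold changes lay between -0.27 (ALG8) and 0.39 (ALG9). Low-glucose and control values did not overlap for 19 members, beside 43.9% of all genes tested, and these were the 14 that passed and DHDDS, DPM2, ALG2, ALG13 and RPN2. The split of 7 higher and 7 lower was 12 and 5 with scaling by library size, where all genes were 3930 higher and 2645 lower (3111 and 3417 without it), and 12 and 5 with quantile normalization, where all genes were 2900 higher and 3125 lower. Only 4 members were lower without low glucose replicate 1 or without replicate 2, which also moved the number of higher genes in the transcriptome from 3111 to 1921 and 1973 (2018 without the deepest low-glucose library), and the number of all genes past the threshold from 6528 to 4298 without replicate 1.

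**Figure D1:**
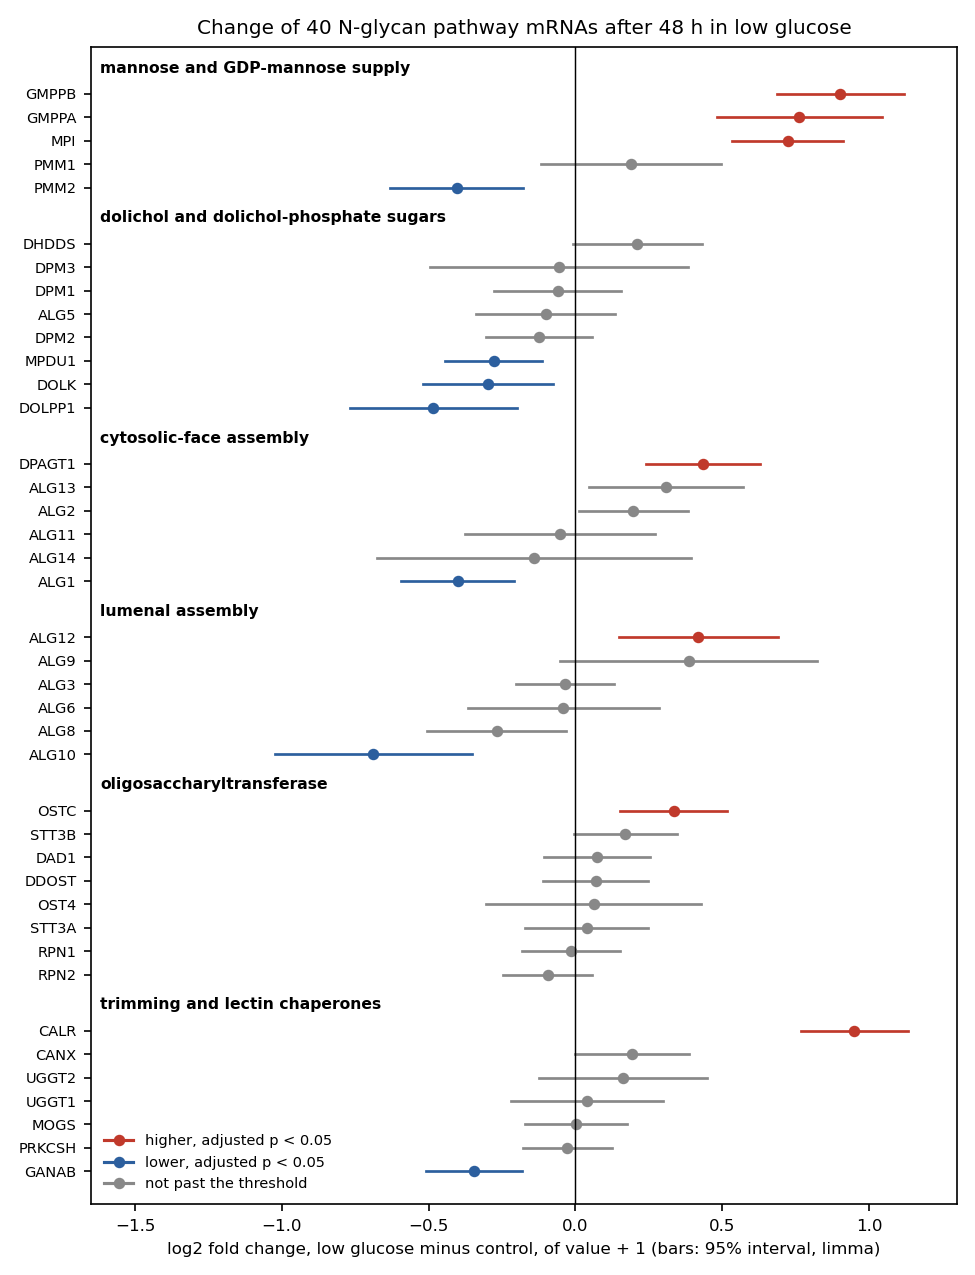
Log2 fold change (low glucose minus control, of value + 1) of the 40 tested members by role, with points for the limma estimate and bars for its 95% interval. GMPPB, GMPPA, MPI and CALR lie furthest to the right, at 0.72 to 0.95, and ALG10 lies furthest to the left at -0.69, while the OST subunits other than OSTC lie between -0.09 and 0.17.

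Levels can be compared between genes only per length, here as TPM, reads per length of the merged exons of a gene, scaled to the same total in every library. Summed over the members, the level was 4139 TPM in control and 4764 TPM in low glucose, 15.1% more, with no test made of this sum. CALR alone made up 21.2% of the sum in control and 34.2% in low glucose. It went from 877 to 1628 TPM, a larger rise than that of the sum, so the other members together were lower. At 200 TPM or more in both conditions were 9 members, CALR, GANAB, CANX, PRKCSH and the OST subunits RPN1, RPN2, DDOST, DAD1 and OST4. Of these, 2 passed the test, CALR and GANAB, beside 30.9% of all genes. The mRNAs for building the glycan all lay below these 9. Not all of them were scarce, since ALG3 (72.7 TPM in control) and DPM3 (91.8) were not below the OST subunit STT3A (72.1). Merged exons can be longer than the transcripts that the cells make, which lowers the TPM of such genes, and this was not examined. ALG14 (1.28 TPM in control, 1.10 in low glucose), ALG11 (1.69 and 1.55) and ALG9 (1.72 and 2.14) were the lowest of the mRNAs tested, and 9 members were under 10 TPM in both conditions. On its own strand ALG11 shares 5529 bases of exon with UTP14C, and ALG9 shares 1954 with ENSG00000258529. Both partners had 0 reads in every library. GMPPB shares 2841 bases (42.6% of its exon bases) with AMIGO3 on its own strand, and AMIGO3 had at most 1 read in any library. How reads on shared bases were counted was not tested, so the levels of ALG11, ALG9 and GMPPB may be too low. The 4 members that rose by 0.5 or more on the log2 scale thus lay far apart in level, with CALR at the top of the range and the sugar-supply enzymes GMPPA, GMPPB and MPI in its lower part, at 9.77 to 22.3 TPM.

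**Figure D2:**
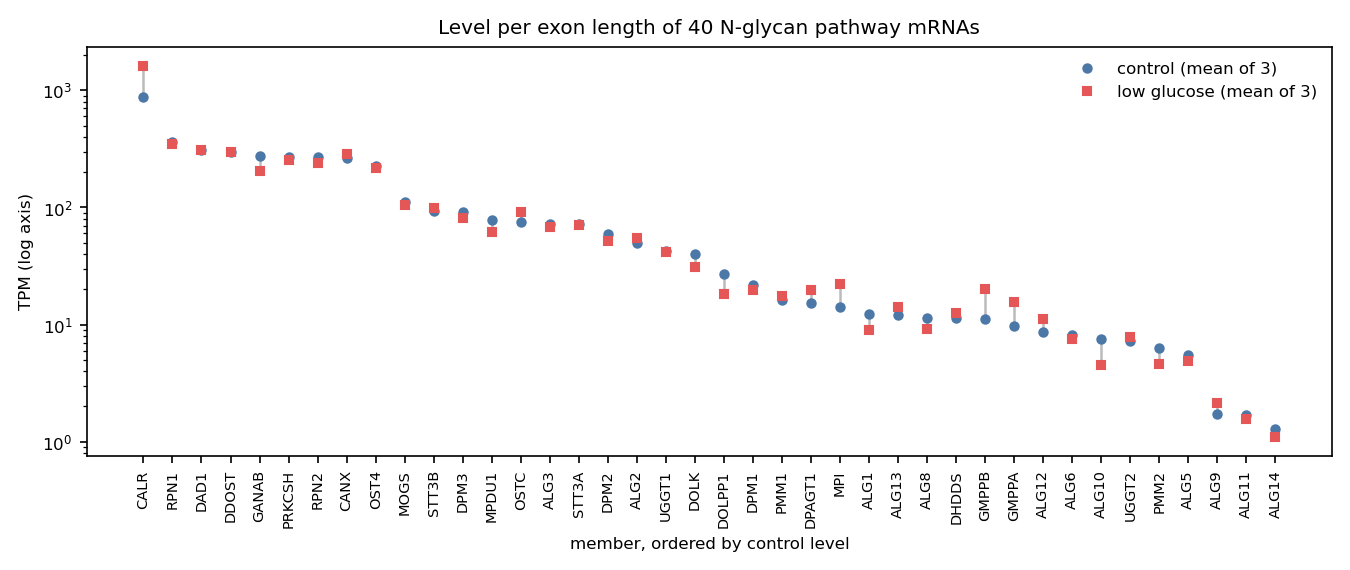
Level of each tested member in TPM (log axis), ordered by its control level, with circles for the mean of 3 control libraries and squares for the mean of 3 low-glucose libraries. CALR stands above all other members in both conditions, at 877 and 1628 TPM, and GMPPB, GMPPA and MPI move up from 9.77 to 14.1 TPM in control to 15.7 to 22.3 TPM in low glucose.

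Of the 5 mRNAs for mannose and GDP-mannose supply, 4 passed the threshold (80%, beside 30.9% of all genes). These were 3 higher and 1 lower, with a median log2 fold change of 0.72 for the group of 5. MPI, which interconverts fructose-6-phosphate and mannose-6-phosphate and so links glycolysis to glycosylation, lies on chromosome 15 of hg38 (74890005 to 74902219, plus strand). Its normalized counts were 428, 388 and 459 in control and 708, 698 and 696 in low glucose. All low-glucose values lay above all control values, and the low-glucose libraries differed from each other by far less than the control libraries. The mean rose from 425 ± 35.7 to 701 ± 6.39 (SD, n = 3 each), a log2 fold change of 0.72 (standard error, SE, of 0.0884, limma adjusted p = 2.82e-05).

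The enzyme after the phosphomannomutase step, GDP-mannose pyrophosphorylase, has a catalytic subunit, GMPPB, and a regulatory subunit, GMPPA. GMPPB (chromosome 3, 49716844 to 49723973, minus strand) had 259, 232 and 256 normalized counts in control and 487, 493 and 421 in low glucose. The 2 conditions did not overlap, and the mean went from 249 ± 14.8 to 467 ± 40.1 (SD, n = 3 each). The log2 fold change was 0.90 (SE 0.101, limma adjusted p = 1.35e-05). GMPPA (chromosome 2, 219498865 to 219513898, plus strand) had 214, 183 and 272 in control and 356, 400.2 and 367 in low glucose. Here, too, the conditions were separate, although the control libraries spread widely. GMPPA had a log2 fold change of 0.76 (SE 0.131, limma adjusted p = 0.000495).

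Between these steps, phosphomannomutase converts mannose-6-phosphate to mannose-1-phosphate, and its isoforms PMM1 and PMM2 did not follow the other enzymes. PMM2, the isoform whose inherited loss causes the most common congenital disorder of glycosylation, had 265, 283 and 244 normalized counts in control and 199, 198 and 199 in low glucose. It fell by 0.41 on the log2 scale (SE 0.106, limma adjusted p = 0.00947), with no overlap between the conditions. PMM1 had 271, 235 and 302 in control and 306, 377 and 247 in low glucose. These ranges overlapped, and its log2 fold change of 0.19 (95% interval -0.12 to 0.49) did not pass.

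Exons of several of these genes overlap those of a gene on the opposite strand, and the sources used here do not say whether reads were counted by strand, so the reads of such pairs may be mixed. MPI shares 2228 bases with FAM219B, which had a log2 fold change of 0.82 (limma adjusted p = 3.48e-05). GMPPB shares 1166 bases with RNF123 (0.26, limma adjusted p = 0.0551), and on its own strand 39.7% of its 50-base stretches also occur in AMIGO3, which had at most 1 read in any library. PMM2 shares 916 bases with CARHSP1 (-0.37, limma adjusted p = 0.0254). It also shares 453 with TMEM186 (0.17) and 356 with ENSG00000260350 (-0.34), neither of which passed the test. PMM1 shares 172 with CSDC2 (0.30, not past the threshold). GMPPA has no such partner. The part of these partners in the values was not tested.

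**Figure D3:**
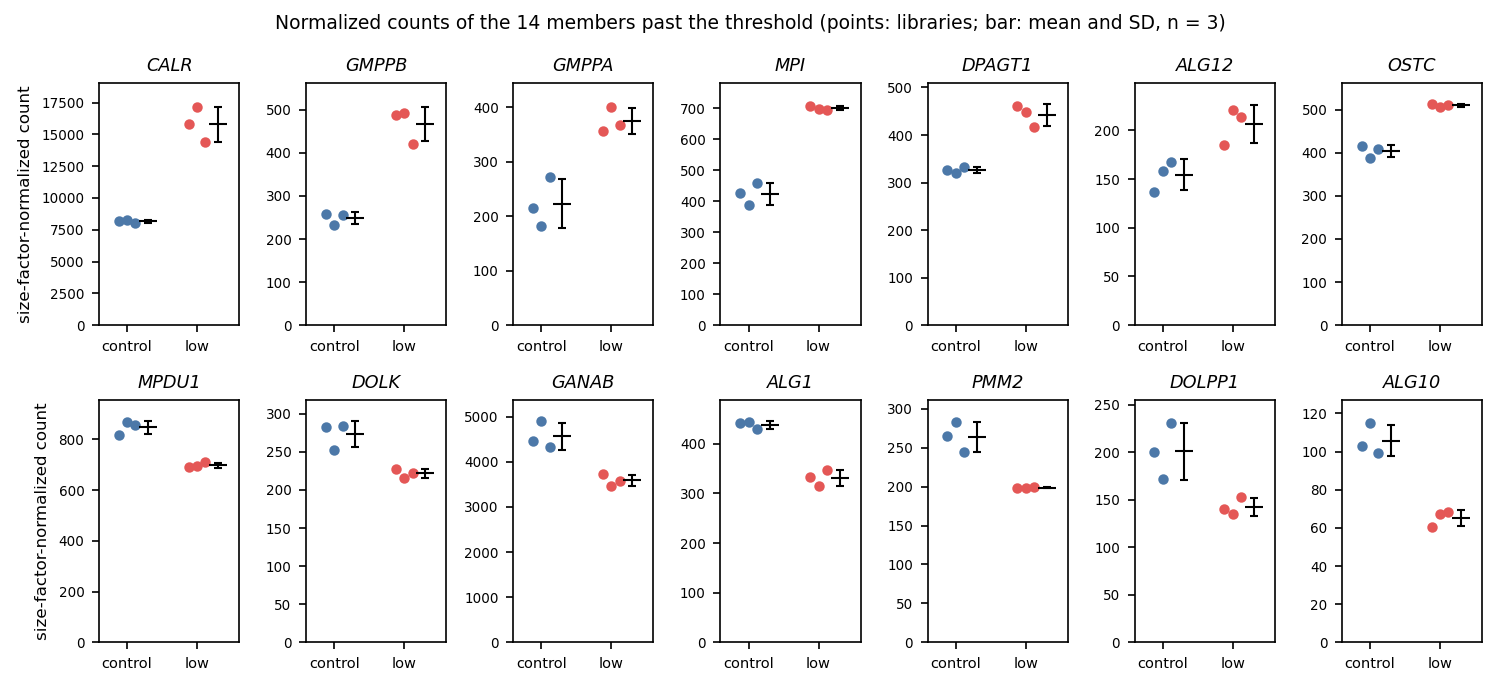
Normalized counts of the 14 members that passed the threshold, with 1 point per library and a bar for the mean and SD of 3 libraries in each condition (each axis starts at 0). In all 14 panels the low-glucose points lie entirely above or entirely below the control points, from CALR at 8037 to 17149 down to ALG10 at 60.3 to 115.

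In the dolichol group, 3 of 8 mRNAs passed (37.5%, near the 30.9% of all genes), all of them lower, and the median log2 fold change was -0.11. DOLPP1, a phosphatase that recycles dolichol after the glycan has been transferred, had 201, 172 and 231 normalized counts in control and 140.3, 135 and 153 in low glucose. The log2 fold change was -0.48 (SE 0.133, limma adjusted p = 0.0126). The kinase that makes dolichol phosphate, DOLK, had 283, 253 and 284 in control and 227, 215 and 223 in low glucose, a fall by 0.30 on the log2 scale (SE 0.103, limma adjusted p = 0.0409). MPDU1, a protein required for the use of mannose and glucose carried on dolichol phosphate, had 817, 867 and 858 in control and 691, 695 and 709 in low glucose. It fell by 0.28 (SE 0.0770, limma adjusted p = 0.0130). The conditions were separate for all 3, and their means fell by 17.6% for MPDU1, fell by 18.8% for DOLK and fell by 29.1% for DOLPP1.

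These 3 calls were lost under several alternatives. DOLPP1 lost its call without low glucose replicate 1 (limma adjusted p = 0.0691) or 2 (0.0554), within 0.000691 to 0.0691 over all alternatives, at log2 fold changes of -0.44 and -0.47. MPDU1 did so without replicate 1 (0.0581) or 2 (0.0642), within 0.00727 to 0.132, at -0.28 and -0.27. The call of DOLK was lost without the control libraries of 9741183 (0.121) or 10190154 reads (0.0717), low glucose replicate 1 (0.133) or 2 (0.0944), or the deepest low-glucose library (0.103), within 0.0116 to 0.138, at log2 fold changes of -0.27 to -0.31. Without the variance trend all 3 calls were lost as well (limma adjusted p of 0.0643 to 0.0765). DOLK also lost its call with library size scaling (-0.22, limma adjusted p = 0.138), TMM scaling (0.0514) and DESeq2 (adjusted p = 0.0982), and MPDU1 with library size scaling (-0.20, limma adjusted p = 0.0607) and quantile normalization (-0.16, 0.132). MPDU1 shares 192 bases of exon with FXR2 and 430 with ENSG00000233223 on the other strand, neither of which passed the test, and 35 with SOX15 (from 38.7 to 19.6 normalized counts, -0.96, limma adjusted p = 0.0201).

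The other dolichol enzymes did not pass. DHDDS, the catalytic subunit of the enzyme that makes the dolichol chain, had 252, 299 and 257 normalized counts in control and 317, 303 and 313 in low glucose, and its log2 fold change of 0.21 had a limma adjusted p of 0.137 (0.0267 without the control library of 10126218 reads and 0.0378 with library size scaling, within 0.0267 to 0.326). Dolichol-phosphate-mannose synthase has the catalytic subunit DPM1 and the small membrane subunits DPM2 and DPM3. DPM1 had 729.8, 557 and 702 in control and 616, 635 and 644 in low glucose, with a log2 fold change of -0.06 (95% interval -0.28 to 0.16). DPM3 had 186, 120.4 and 262 in control and 162, 179 and 180.3 in low glucose. Its control libraries thus spanned a wider range than the low-glucose libraries, with the library of 10126218 reads lowest and that of 10190154 reads highest. The log2 fold change of DPM3 was -0.06 (95% interval -0.49 to 0.38), and without the control library of 10126218 reads it was -0.35 (limma adjusted p = 0.0492, within 0.0492 to 0.988), and 0.21 without that of 10190154 reads. The transcript of DPM3 is short, and the order of its control values follows the length pattern of these libraries, whose part in the result was not tested. DPM2 (-0.13) and ALG5 (-0.10), which makes dolichol-phosphate-glucose, also did not pass.

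On the cytosolic face, 2 of 6 mRNAs passed (33.3%, near the 30.9% of all genes), and they went in opposite directions. DPAGT1, which commits dolichol to the pathway by adding the first N-acetylglucosamine, rose from 326 ± 5.96 to 442 ± 22.9 normalized counts (SD, n = 3 each). This is a log2 fold change of 0.43 (SE 0.0904, limma adjusted p = 0.00211). ALG1, which adds the first mannose, fell from 437 ± 7.28 to 331 ± 16.3 (SD, n = 3 each), a log2 fold change of -0.40 (SE 0.0899, limma adjusted p = 0.00350). DPAGT1 shares 1123 bases of exon with C2CD2L on the other strand (0.34, limma adjusted p = 0.0258), and ALG1 shares 983 with EEF2KMT (-0.14, not past the threshold). The second N-acetylglucosamine is added by a complex of ALG13, the catalytic subunit, and ALG14, its membrane anchor. ALG13 had 368, 259 and 353 normalized counts in control and 402, 400.2 and 398 in low glucose, all above control. Its log2 fold change of 0.31 had a limma adjusted p of 0.0688, and of 0.0295 without the control library of 10190154 reads, 0.0329 with library size scaling, 0.0411 with quantile normalization and 0.0491 with edgeR (within 0.0295 to 0.219). ALG14 had 39.2, 31.2 and 52.4 in control and 30.6, 36.6 and 42.4 in low glucose, a difference of -0.14 with a 95% interval of -0.68 to 0.39. The mannosyltransferases ALG2 (0.20, limma adjusted p = 0.0995) and ALG11 (-0.05) did not pass either. ALG2 did pass with library size scaling (0.28, limma adjusted p = 0.0250), quantile normalization (0.26, 0.0306) and edgeR (0.22, adjusted p = 0.0492), within 0.0250 to 0.320.

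Of the 6 lumenal enzymes, 2 passed (33.3%, near the 30.9% of all genes), and of these ALG12 rose and ALG10 fell. ALG12 adds one of the mannoses of the upper arm, and it had 137, 158 and 168 normalized counts in control and 185, 221 and 214 in low glucose. The log2 fold change was 0.42 (SE 0.127, limma adjusted p = 0.0210). This call was lost without the control library of 9741183 reads (0.0945), low glucose replicate 1 (0.109) or the deepest low-glucose library (0.0924), within 0.00826 to 0.109. On the other strand, ALG12 shares 168 bases of exon with CRELD2, an ER stress gene that went from 487 to 1416 normalized counts (1.55, limma adjusted p = 6.05e-07), and 2085 with ENSG00000273192 (0.59, limma adjusted p = 0.0200). ALG10 adds the last glucose, the one that the OST recognizes. It lies on chromosome 12 (34022468 to 34029694, plus strand), and it had 103, 115 and 99.5 normalized counts in control and 60.3, 67.3 and 68.2 in low glucose. No value overlapped, and ALG10 fell by 0.69 on the log2 scale (SE 0.156, limma adjusted p = 0.00385). Its near copy ALG10B shares 28.2% of the 50-base stretches of ALG10, so reads could be split between them. ALG10B also fell, from 108 ± 16.5 to 64.7 ± 8.27 (SD, n = 3 each, -0.73, limma adjusted p = 0.00527). ALG10 shares 1667 bases of exon (39.7% of its exon bases) with ENSG00000245482 on the other strand. That gene went from 30.4 to 20.3 normalized counts (-0.56, limma adjusted p = 0.177), and its part in the values of ALG10 was not tested. The other lumenal enzymes were ALG3 (-0.04), ALG6 (-0.04), ALG8 (-0.27) and ALG9 (0.39), and none of them passed. ALG8, which adds the second glucose, passed without the control library of 9741183 reads (-0.36, limma adjusted p = 0.0461, within 0.0461 to 0.268).

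Of the 9 OST genes, 8 were tested and 1 passed (12.5%, beside 30.9% of all genes), with a median log2 fold change of 0.07. With quantile normalization STT3A and STT3B passed as well. OSTC, a subunit of the STT3A form of the OST, which binds the protein channel, rose from 404 ± 14.3 to 510 ± 4.12 normalized counts (SD, n = 3 each). Its log2 fold change was 0.33 (SE 0.0849, limma adjusted p = 0.00781). The catalytic subunits STT3A and STT3B were measured at 1324 to 2475 reads per library. STT3A, which acts while the protein is still entering the ER, had 1689, 2041 and 1556 normalized counts in control and 1874, 1654 and 1875 in low glucose. This gave a log2 fold change of 0.04, with a 95% interval of -0.17 to 0.25, and with quantile normalization it was 0.25 (limma adjusted p = 0.0410, within 0.0410 to 0.970). STT3B, which can act after translation, had 1484, 1702 and 1423 in control and 1690.2, 1763 and 1720.0 in low glucose. Its log2 fold change of 0.17 had a 95% interval of -0.00 to 0.35 and a limma adjusted p of 0.130. Without the control library of 10126218 reads, the highest of the control libraries for STT3B, the latter was 0.00342. STT3B also passed with library size scaling (0.25, limma adjusted p = 0.0223) and with quantile normalization (0.37, 0.00152), within 0.00152 to 0.313.

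The ribophorins RPN1 and RPN2, large noncatalytic subunits, were close to their control levels. RPN1 had 4646, 5065 and 4669 normalized counts in control and 4807, 5006 and 4428 in low glucose. RPN2 had 2893, 2992 and 3042 in control and 2719, 2778 and 2866 in low glucose. The log2 fold changes were -0.01 (95% interval -0.18 to 0.15) for RPN1 and -0.09 (95% interval -0.25 to 0.06) for RPN2, and with quantile normalization they were 0.18 and 0.07. DDOST (0.07), DAD1 (0.07) and OST4 (0.06) did not pass. OST4, whose transcripts are short, was at -0.20 without the control library of 10126218 reads and at 0.28 without that of 10190154 reads, and neither value passed. The oxidoreductase subunit of the STT3B form is encoded by TUSC3 or by MAGT1. TUSC3 had 1 read, in low glucose replicate 2, and 0 in the other 5 libraries, so it was not tested, whereas MAGT1 was at 43.7 TPM in control and 51.1 TPM in low glucose.

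Among the 7 trimming enzymes and lectin chaperones, 2 passed (28.6%, near the 30.9% of all genes), and of these CALR rose and GANAB fell. CALR, the soluble lectin chaperone of the ER lumen and a calcium-binding protein, lies on chromosome 19 (12938578 to 12944489, plus strand). It had 8171, 8246 and 8037 normalized counts in control and 15827, 17149 and 14403 in low glucose. The control libraries lay close together, and the lowest low-glucose library was far above them. The mean went from 8151 ± 106 to 15793 ± 1374 (SD, n = 3 each), 93.7% higher, with a log2 fold change of 0.95 (SE 0.0846, limma adjusted p = 1.80e-06). ENSG00000267458, a noncoding gene that shares 270 bases of exon with CALR on the other strand, went from 989 to 2043 normalized counts, and whether its reads belong to CALR was not tested.

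Calnexin (CANX), the membrane-bound lectin of the same specificity, had 12087, 13302 and 10722 normalized counts in control and 13252, 14128 and 13777 in low glucose. One control library lay within the low-glucose range. Its log2 fold change of 0.19 had a 95% interval of -0.00 to 0.39 and did not pass (limma adjusted p = 0.123). Without the control library of 10126218 reads, which was the highest control for CANX, it was 0.27 (limma adjusted p = 0.000728). CANX also passed with library size scaling (0.27, limma adjusted p = 0.0228) and with quantile normalization (0.24, 0.0496), within 0.000728 to 0.335.

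Glucosidase II, which removes the inner glucoses and thereby opens and closes the lectin cycle, consists of the catalytic subunit GANAB and the subunit PRKCSH. GANAB had 4465, 4895 and 4328 normalized counts in control and 3728, 3474 and 3569 in low glucose, lower in every library. It fell by 0.34 on the log2 scale (SE 0.0764, limma adjusted p = 0.00327). The call was lost with quantile normalization (-0.12, limma adjusted p = 0.238) and without the variance trend (0.0556), within 0.000219 to 0.238. PRKCSH had 4582, 4776 and 4528 in control and 4589.5, 4497 and 4533 in low glucose, and its log2 fold change was -0.03 (95% interval -0.18 to 0.12). Glucosidase I, MOGS, which removes the outermost glucose, was at 0.00 (95% interval -0.17 to 0.17).

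The folding sensor that adds a glucose back to misfolded glycoproteins is encoded by UGGT1 and its homologue UGGT2. UGGT1 had 1597, 1957 and 1258 normalized counts in control and 1626, 1692 and 1550.3 in low glucose, so the control libraries enclosed the low-glucose libraries. UGGT2 had 192, 165 and 230.0 in control and 203, 240.5 and 209 in low glucose. Their log2 fold changes were 0.04 (95% interval -0.22 to 0.30) and 0.16 (95% interval -0.12 to 0.45), and neither passed. In the control library of 10126218 reads UGGT1 was highest and UGGT2 lowest, and in that of 10190154 reads the reverse held.

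CALR, CANX and ALG12 share a promoter feature that the choice of members did not use. The ER stress response element (ERSE), the letters CCAAT, 9 bases and CCACG, is known as a site for the unfolded protein response factor ATF6 with NF-Y. RefSeq promoters (GRCh38.p14, from 250 bases before to 50 after a start site) were given for 36 of the 41 members, as 51 promoters. STT3B, MOGS, RPN1, TUSC3 and ALG10 had no entry. On either strand, these ERSE letters were found in 27 of 35116 promoters (0.0769%), among them promoters of CALR, CANX and ALG12 and of no other member. The 3 sequences are shown because they are the members with these letters, and the capitals mark the ERSE, which in CALR lies on the strand opposite to the gene and therefore appears as CGTGG, 9 bases and ATTGG. The CALR promoter is chr19:12938359-12938658 on the plus strand, that of CANX chr5:179698679-179698978 on the plus strand, and that of ALG12 chr22:49918389-49918688 on the minus strand, each written 5′ to 3′ along the gene.
CALR: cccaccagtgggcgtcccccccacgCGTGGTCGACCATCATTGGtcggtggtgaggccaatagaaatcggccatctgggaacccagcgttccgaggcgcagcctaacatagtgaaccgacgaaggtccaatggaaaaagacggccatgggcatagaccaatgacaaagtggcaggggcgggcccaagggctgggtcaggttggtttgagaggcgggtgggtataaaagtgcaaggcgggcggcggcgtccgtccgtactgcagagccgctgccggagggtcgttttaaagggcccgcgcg
CANX: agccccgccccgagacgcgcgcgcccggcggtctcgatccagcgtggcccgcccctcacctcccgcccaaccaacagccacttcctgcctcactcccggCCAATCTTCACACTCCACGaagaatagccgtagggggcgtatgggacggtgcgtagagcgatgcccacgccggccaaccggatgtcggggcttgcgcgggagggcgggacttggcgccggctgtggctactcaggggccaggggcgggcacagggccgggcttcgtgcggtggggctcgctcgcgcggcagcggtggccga
ALG12: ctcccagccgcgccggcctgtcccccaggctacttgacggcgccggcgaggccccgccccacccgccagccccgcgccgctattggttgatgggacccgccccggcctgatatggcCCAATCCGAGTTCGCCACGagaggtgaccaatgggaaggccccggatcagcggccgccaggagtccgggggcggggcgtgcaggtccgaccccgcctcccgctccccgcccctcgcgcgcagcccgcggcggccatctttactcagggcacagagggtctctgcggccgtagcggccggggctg
The letters begin at position -225 from the start site in CALR, -151 in CANX and -134 in ALG12. For CANX, which has several RefSeq start sites, the same site was found in 3 promoters. As given above, CALR and ALG12 rose and CANX did not pass, so the same letters stood before genes with log2 fold changes of 0.95, 0.42 and 0.19. A relative of the element, ERSE-II (ATTGG, 1 base and CCACG), was found in 19 promoters (0.0541%) and in none of the members. The UPRE core (TGAC followed directly by GTGG), a site known for XBP1, was found in 256 (0.729%), with DHDDS as the only member. The composite site of ATF4 (TTGC followed directly by ATCA) was found in 304 (0.866%) and in no member. No overlap between these motifs was searched for, and a match in letters is no measurement of binding.

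**Figure D4:**
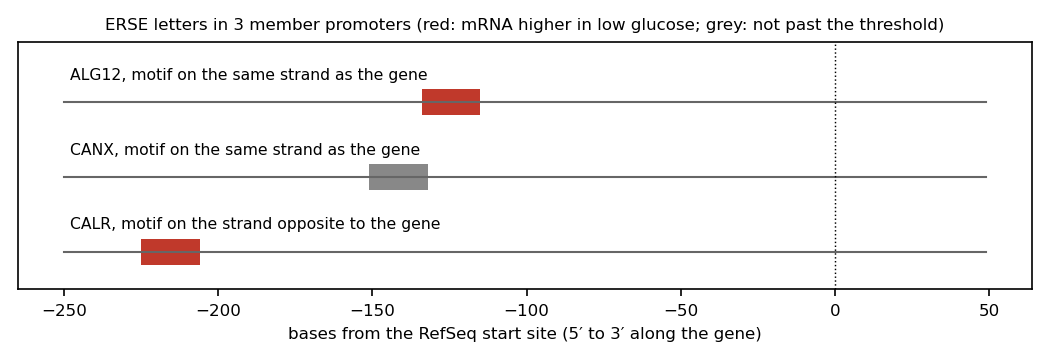
Position of the ERSE letters in the promoters of ALG12, CANX and CALR, in bases from the RefSeq start site along the gene, with a box for the matched letters and its colour for the mRNA (red, higher in low glucose, and grey, not past the threshold). The boxes begin at -134, -151 and -225.

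Partner genes were also compared as log2 ratios of value + 1 within a library, which scaling affects only through the added 1. A ratio does not remove the length pattern of the control libraries where partners differ in transcript length. Of the 10 pairs, 9 had reads for both genes, and TUSC3/MAGT1 did not. The conditions were separate for 4 of the 9, each with a two-sided exact permutation p of 0.1 and an adjusted p of 0.225 over the 9 pairs. No smaller p than 0.1 can come from 3 libraries a condition. CANX/CALR shifted most. Its log2 ratio was 0.56, 0.69 and 0.42 in control and -0.26, -0.28 and -0.06 in low glucose, so that more normalized counts fell on CANX in every control library and on CALR in every low-glucose library. The difference of the means was -0.76, and per length the ratio of CANX to CALR went from 0.301 to 0.177. PMM2/PMM1 went down by a mean of -0.59, from -0.04, 0.27 and -0.31 to -0.62, -0.92 and -0.31, where the highest low-glucose library lay just under the lowest control library. ALG14/ALG13 differed by -0.45, although ALG14 had only 28 to 56 reads per library. GANAB/PRKCSH differed by -0.32, with -0.04, 0.04 and -0.07 in control and -0.30, -0.37 and -0.35 in low glucose, the least spread of the 4.

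The ratios of the other 5 pairs overlapped between conditions. STT3A/STT3B differed by -0.13 (exact permutation p = 0.2), UGGT1/UGGT2 by -0.12 (0.7), GMPPB/GMPPA by 0.14 (0.5), RPN1/RPN2 by 0.08 (0.3) and DPM1/DPM3 by -0.00 (1). For GMPPB/GMPPA, where both mRNAs rose, the SD of the log2 ratio was 0.23 in control and 0.13 in low glucose, beside the difference of 0.14.

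**Figure D5:**
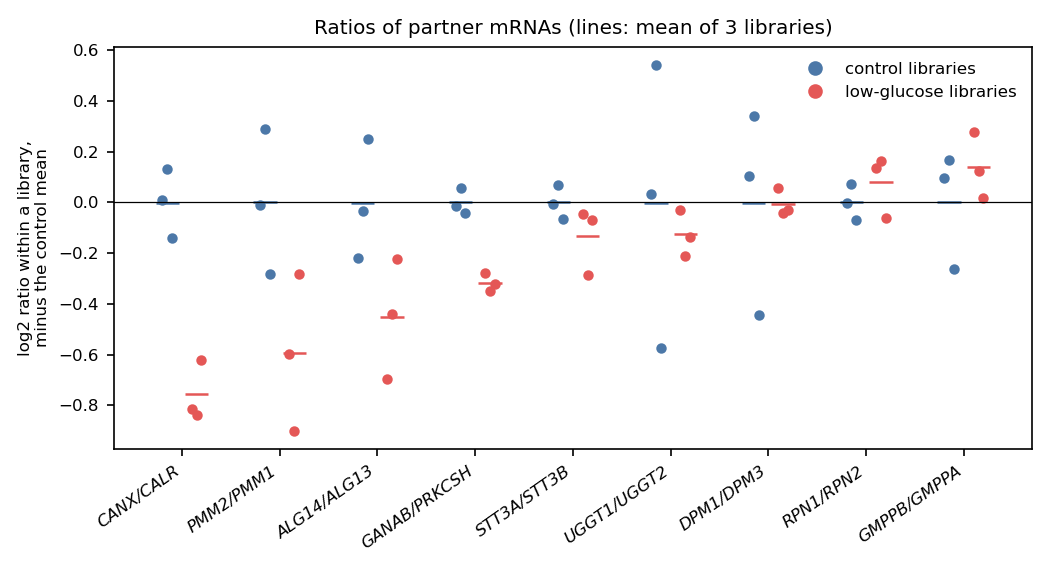
Log2 ratio of partner mRNAs within each library, minus the mean of the control libraries, with blue points for control, red points for low glucose and lines for the mean of 3 libraries. For CANX/CALR, PMM2/PMM1, ALG14/ALG13 and GANAB/PRKCSH all low-glucose points lie below all control points, and for the other 5 pairs they overlap.

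Of 34 further genes of the pathway, all tested, 19 (55.9%) passed the limma threshold, 13 higher and 6 lower, beside the 30.9% of all genes, and their median log2 fold change was 0.26. With library size scaling 18 were higher and 4 lower, and with quantile normalization 19 and 3. Whether this list differed from the members was not tested. All 3 partners of the calnexin cycle rose. PDIA3, the disulfide isomerase that works with CALR and CANX, had 3680.4, 2976 and 3525 normalized counts in control and 5198, 5866 and 5256 in low glucose. It rose by 0.68 on the log2 scale (SE 0.0901, limma adjusted p = 5.47e-05), between the 0.95 of CALR and the 0.19 of CANX. CLGN, a calnexin homologue known from testis, went from 24.6 ± 3.95 to 93.9 ± 8.18 (SD, n = 3 each, log2 fold change 1.90, limma adjusted p = 1.02e-05), but at 9.61 TPM in low glucose it stayed far below CALR and CANX.

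Of the 7 mannosidases and related proteins that trim the glycan before export or degradation, 2 passed (28.6%, near the 30.9% of all genes). These were EDEM1 (0.98) and EDEM2 (0.59), both of which mark misfolded glycoproteins for degradation. Of the 5 lectins of degradation and export, 4 passed (80%), 3 higher and 1 lower. ERLEC1, which recognizes trimmed glycans on degradation substrates, had a log2 fold change of 0.72, and MCFD2, a partner of the cargo lectin LMAN1, of 0.50. All 5 genes for the UDP-sugar donors passed, 3 higher and 2 lower. The log2 fold changes of the 2 lower genes were -0.42 and -0.26. Summed over the 5, the level went from 626 to 508 TPM, with no test made of this sum. GFPT1, the rate-limiting enzyme of the hexosamine pathway, went from 503 ± 21.9 to 1278 ± 62.1 (SD, n = 3 each, log2 fold change 1.34, limma adjusted p = 4.56e-08), and PGM3, a later step, had a log2 fold change of 0.84. In the dolichol and flipping list, 2 of 4 passed and both were lower, ALG10B as given above among them. MAGT1 was the 1 of 4 further OST genes that passed (0.29, limma adjusted p = 0.0114). Of 4 Golgi branching enzymes 1 was higher and 1 lower, and of 2 deglycosylating enzymes neither passed. Without low glucose replicate 2, only 3 of the 34 were lower.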

How the data were processed

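RNA-seq of MiaPaCa-2 cells in low glucose (3 libraries) and control (3) was analysed. The authors mapped 150-base paired reads to hg38 with STAR 2.7.0e and deposited gene counts divided by a DESeq2 size factor per library, a signal in units of scaled counts. Divided by the value of 1 read, 100% of the values of each library were whole reads (tolerance 0.01). RSEM is in the software list of the study, but the methods do not say which tool made the deposited gene counts, and a strand setting is not given in the sources used here. The labels name 2 of the 6 columns (low glucose replicates 1 and 2), and the other 4 were assigned because the column names form a run of 3 for each condition. The treatment text gives 2.5 mM for all samples, whereas titles and design text give a control of 25 mM. Chi-square per gene between replicates was 4.63 to 18.9 for control pairs and 1.90 to 2.89 for low-glucose pairs. The design foresaw raw counts or normalized values, and the branch for the latter was used.

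Log2(value + 1) of 21101 genes (mean 1 or more) was fitted with limma 3.58.1 in R 4.3.3 (lmFit, eBayes with trend). TPM used recovered reads and merged exons of Gencode v44, which matched 99.5% of identifiers. Pair ratios were compared with exact permutation tests. The members and gene lists were chosen with earlier results of these data known. Every member may be named. Values in every library are given for members past the threshold and 0.5 or more from 0 on the log2 scale, fixed pairs, members whose call depends on 1 library and those with few reads. Of the other genes of the pathway, those past both limits, MAGT1 and PDIA3 are named. Alternatives were scaling by library size, TMM or quantiles, a pseudocount of 0.1, no filter, a mean of at least 10, no variance trend, edgeR 4.0.16 and DESeq2 1.42.0 on recovered reads, and each library left out. Tested on simulated data of 21143 genes, limma recovered 52 of 100 genes changed by 0.5 and 91 of 100 changed by 1 on the log2 scale, with 1 false call. The simulation gave every gene a dispersion of 0.01 and held no length pattern between libraries, unlike the control libraries here. Its rates therefore may not hold for these data.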

Additional observations from a re-analysis of the deposited data

How the results depend on the processing

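Of the 14 members past the threshold, MPI, PMM2, GMPPA, GMPPB, DPAGT1, ALG1, ALG10, OSTC and CALR (9, of which 6 were higher and 3 lower) passed in all 15 alternative fits, and DOLK, DOLPP1, MPDU1, ALG12 and GANAB did not. The number of members past the threshold was 9 without the variance trend (3 lower) and 5 with a minimum absolute log2 fold change of 0.5 (4 higher, 1 lower), and 12 were higher with library size scaling or quantile normalization. With 1 library left out, 10 to 18 members passed, 6 to 10 higher and 4 to 8 lower. Of the further pathway genes, 3 were lower with quantile normalization or without the variance trend and 3 to 6 with 1 library left out. Over all genes, 4090 passed without the variance trend (1991 lower), 3883 with the minimum fold change (1624 lower), and 4298 to 7173 with 1 library left out (1921 to 3489 higher).

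No member that passed the threshold changed direction. Members near 0 did. With library size scaling the log2 fold change was 0.021 for DPM1, 0.024 for DPM3, 0.044 for ALG3, 0.040 for ALG6, 0.027 for ALG11, 0.066 for RPN1 and 0.053 for PRKCSH. With quantile normalization it was 0.034 for DPM1, 0.095 for ALG3, 0.18 for RPN1 and PRKCSH and 0.066 for RPN2. It was 0.0083 for RPN1 with edgeR and -0.0023 for MOGS with DESeq2. With 1 library left out it ranged from -0.18 to 0.014 for DPM1, -0.35 to 0.21 for DPM3, -0.14 to 0.10 for ALG6, -0.10 to 0.0035 for ALG11, -0.32 to 0.048 for ALG14, -0.054 to 0.035 for RPN1, -0.0071 to 0.14 for DDOST, -0.20 to 0.28 for OST4, -0.047 to 0.15 for STT3A, -0.045 to 0.074 for MOGS and -0.12 to 0.19 for UGGT1. The cause of these changes was not tested. No paired analysis was possible because 4 columns of values bear no replicate number. With 3 libraries a condition, exact tests could not reach a p under 0.1, and changes of about 0.5 on the log2 scale were recovered in part in simulated data.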
